A study of Mus musculus with 10 samples.

Results

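The genes described here drive DNA replication and mitosis. Of 39 genes chosen by symbol, 20 act in DNA synthesis and 19 in mitosis, and 36 were read by a probe set that names 1 gene (19 replication and 17 mitotic genes, of 8252 genes so read on the whole array). Where a gene had several such probe sets, the one with the highest mean intensity was used. Ccnb1 and Bub1b had no such probe set and were not analysed here, and the probe set annotated to Tyms named a second gene and was left out. Testing was limited to probe sets that were brighter than their array's median on 2 or more arrays. Of the 36 members, 35 met this criterion (18 replication and 17 mitotic), and Mcm6 did not, with intensities from 2.9 to 42.2.

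RNA had been hybridized to 10 MG_U74Av2 oligonucleotide arrays, each with 12488 probe sets. Tumours were 6 advanced thymic tumours of mice homozygous for the hypomorphic Ikaros mutation IkL/L, for which the labels gave neither age nor strain. They were compared with thymocytes, taken without fractionation at 3 weeks of age on the C57Bl6 background, from WT mice (2 arrays) and from IkL/L mice (2 arrays). Tumours and IkL/L thymocytes therefore shared the Ikaros mutation, while age and tumour growth cannot be told apart between them. The labels gave a mouse for each tumour and thymocyte array but not that the mice or tumours were separate, so p-values measure the spread between arrays. Replicate numbers are names only.

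Before S phase, the origin recognition complex with Cdc6 and Cdt1 loads the ring of Mcm2 to Mcm7 proteins onto DNA, geminin (Gmnn) blocks renewed loading, and the Mcm ring with Cdc45 then unwinds the fork. Genes of this phase are classically controlled by E2F factors, which the retinoblastoma protein holds in check. Genes of mitosis are switched on later, in G2, by the MuvB complex with B-Myb and FoxM1, through the cell cycle genes homology region (CHR) often found with CCAAT boxes bound by NF-Y. In the thymus, division is concentrated in immature blast cells, whereas most double-positive thymocytes, the largest population, are resting.

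Letters of these regulatory motifs were counted in the promoters of the members. In windows from 250 bases before to 50 bases after each annotated start (RefSeq, GRCm38.p6), 3 motifs were searched on both strands: E2F (TTTCCCGC, TTTGGCGC, TTTCGCGC or TTTGCCGC), CHR (TTTGAA or TTTAAA) and the CCAAT box (CCAAT). Of the listed genes, 18 replication and 16 mitotic genes had a window, including some not measured on the array. E2F letters were found in 8 of 18 replication genes (44.4%), in 1 of 16 mitotic genes (6.25%, Cdk1) and in 3.29% of 17491 protein-coding genes. For CHR the shares were 33.3%, 81.25% and 28.2%, and for CCAAT 61.1%, 87.5% and 42.3%. A match is a string of letters, not a shown binding site, and no match in a window says nothing about the factor. The sequences below show replication genes with E2F letters (Mcm5, Mcm6) and the mitotic gene with both E2F and CHR letters (Cdk1). They also show mitotic genes named in the comparisons that follow (Top2a, Kif11, Plk1, Cdc20). Each is written 5′ to 3′ on the strand of its gene and holds at most 180 bases before the start. Capitals mark letters of any of the 3 motifs, and in Mcm5 and Mcm6 overlapping E2F matches on the 2 strands run together. Some matches of the windows lie outside the printed stretches. Among them are CHR letters of Mcm5 at -221 and CCAAT letters at -22, since its stretch ends at -42.
Mcm5, chr8:75109329-75109467, plus strand: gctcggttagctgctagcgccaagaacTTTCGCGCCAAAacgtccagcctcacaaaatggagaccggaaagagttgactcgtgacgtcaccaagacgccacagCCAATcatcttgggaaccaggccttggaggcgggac
Mcm6, chr1:128359706-128359885, minus strand: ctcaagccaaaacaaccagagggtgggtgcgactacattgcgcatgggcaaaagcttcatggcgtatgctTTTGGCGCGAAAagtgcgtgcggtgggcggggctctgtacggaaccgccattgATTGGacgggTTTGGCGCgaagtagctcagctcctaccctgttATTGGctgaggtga
Cdk1, chr10:69352913-69353092, minus strand: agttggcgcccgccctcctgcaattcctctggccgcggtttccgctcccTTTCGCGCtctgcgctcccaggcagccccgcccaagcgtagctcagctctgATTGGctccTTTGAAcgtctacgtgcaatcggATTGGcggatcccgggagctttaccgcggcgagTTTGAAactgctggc
Top2a, chr11:99024200-99024369, minus strand: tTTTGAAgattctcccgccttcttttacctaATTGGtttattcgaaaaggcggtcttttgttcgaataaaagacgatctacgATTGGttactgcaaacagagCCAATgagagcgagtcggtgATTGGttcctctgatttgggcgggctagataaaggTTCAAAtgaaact
Kif11, chr19:37376202-37376381, plus strand: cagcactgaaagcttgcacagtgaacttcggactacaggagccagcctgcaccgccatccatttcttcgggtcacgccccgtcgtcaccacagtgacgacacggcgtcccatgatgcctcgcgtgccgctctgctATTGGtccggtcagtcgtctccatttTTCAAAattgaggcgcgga
Plk1, chr7:122159255-122159434, plus strand: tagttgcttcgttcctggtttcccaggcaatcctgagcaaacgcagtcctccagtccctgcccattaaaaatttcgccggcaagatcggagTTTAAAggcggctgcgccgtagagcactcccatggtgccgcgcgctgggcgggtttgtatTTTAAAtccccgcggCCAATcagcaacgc
Cdc20, chr4:118437344-118437523, minus strand: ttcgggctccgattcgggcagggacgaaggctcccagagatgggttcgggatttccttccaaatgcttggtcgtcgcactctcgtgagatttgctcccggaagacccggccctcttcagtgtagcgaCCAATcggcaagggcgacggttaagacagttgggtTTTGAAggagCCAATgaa

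**Figure D1:**
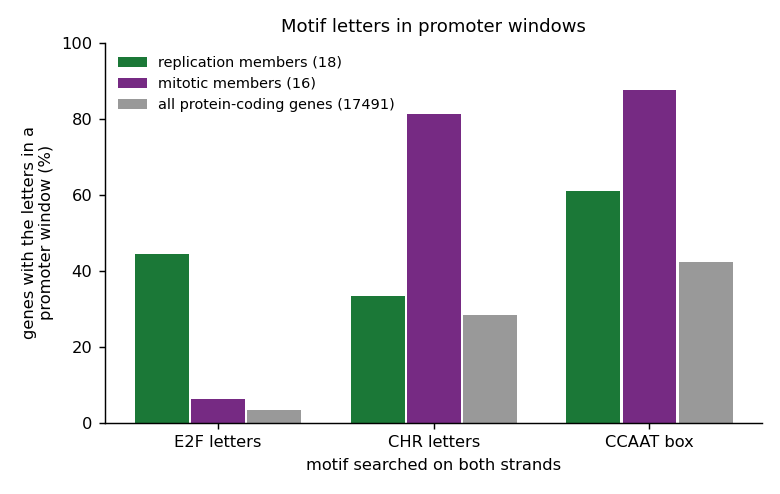
Share of genes (vertical axis, %) with letters of each motif (horizontal axis) in a promoter window, for 18 replication members, 16 mitotic members and 17491 protein-coding genes. The E2F bar is tallest for replication members (44.4%) and the CHR bar for mitotic members (81.25%).

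The scaled arrays had median intensities from 79.8 (tumour 4) to 113 (tumour 6). Correlations between arrays ranged from 0.827 to 0.943. Ikzf1, which encodes Ikaros, read 151 to 388 in tumours, 626 and 401 in WT and 559.5 and 264 in IkL/L thymocytes. Where its probe set lies relative to the mutation is not known here, so it does not check the genotype. Summed intensity of 9 thymocyte markers was 26827 to 44000 in tumours and 57144 to 67597 in thymocytes, with Cd4, Cd8a and Rag1 lower and Ptcra higher in tumours at an adjusted p under 0.05. The T cell markers Cd3e, Cd3g and Thy1 were present in tumours and not called, with log2 differences of -0.32, -0.20 and -0.33. Macrophage markers (10 genes, 9 tested, 7 called higher) summed to 9239 to 19323 in tumours and 3209 to 4104 in thymocytes. Of 9 stromal markers 8 were tested and 4 called higher (1798 to 3017 against 952 to 2072). Thymic epithelial markers (8 genes, 4 tested, all 4 called lower) summed to 381 to 932 against 1422 to 5314. Ctsl was the brightest of them on every array, and Krt8, Krt18 and Ccl25 were the others called. Krt14 lay at the lower limit of 16 in every tumour but also in WT (13.8 and 15.4), with 18.8 and 24.5 in IkL/L thymocytes. Erythroid markers (4 genes, 3 tested, none called) spread from 1544 to 22994 among tumours against 7713 to 10495. Of the 5 B cell markers, all tested, 1 was called lower. Of 7 neutrophil markers 5 were tested and none was called. Of 3 adipocyte markers only 1 was tested, and it was called higher.

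Between tumours and thymocytes, replication genes lay on the higher side and mitotic genes on the lower side, by small amounts, and no single member passed the test. The higher side of the replication genes was not seen with chip lot as a block, where the tumours are represented by tumour 6 alone and the replication median was -0.23 from WT, -0.011 from IkL/L and -0.11 from all thymocytes. Differences are given on the log2 scale as tumour minus thymocyte, with intensities below 16 raised to 16, and were tested with limma over all 7172 tested probe sets (adjusted p under 0.05, Benjamini-Hochberg). Against all 4 thymocyte arrays, 15 of 18 replication members were positive with a median of 0.27, 14 of 17 mitotic members were negative with a median of -0.30, and all tested probe sets had a median of -0.03 with 47.1% positive. None of the 35 members was called, where 6.27% of all tested probe sets were, and the smallest adjusted p among members was 0.133 (Cdc25c). At an unadjusted p under 0.05 there were 3 members (Mcm3, Cdc25c and Top2a), where 23.6% of tested probe sets reached it, so the members' share was below the background. In 0 of 35 members every tumour lay above every thymocyte array (5.45% of tested probe sets), and in 1 member, Cdc25c, every tumour lay below (5.33%). The 95% intervals of the members reached from -0.96 to 1.08 in log2. In RNA from whole tumours and unfractionated thymocytes, a different share of dividing cells and a different amount of these RNAs per dividing cell cannot be told apart.

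**Figure D2:**
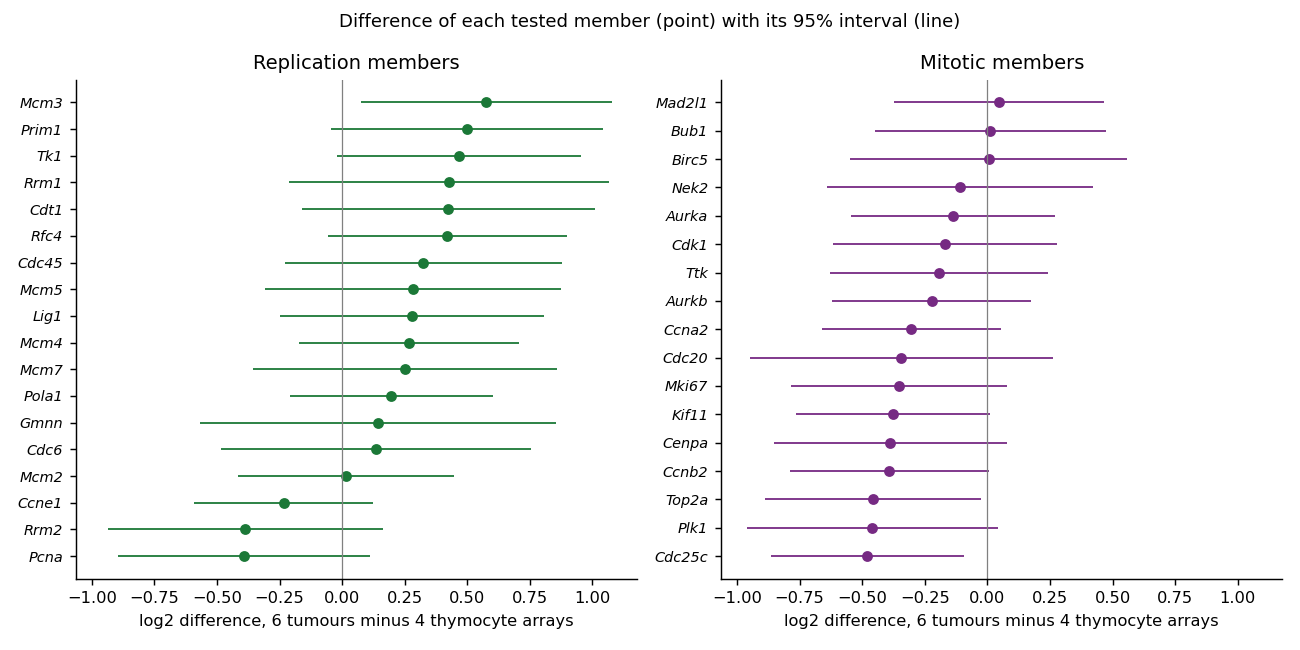
Log2 difference of each tested member between 6 tumours and 4 thymocyte arrays (horizontal axis; points) with its 95% interval (lines), replication members on the left and mitotic members on the right. Of the replication members 15 of 18 lie above 0, and of the mitotic members 14 of 17 lie below 0, and the intervals of all members but Mcm3, Cdc25c and Top2a cross 0.

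Taken against each thymocyte group alone, the classes lay on the same sides, in comparisons that share the same 6 tumours. Against WT thymocytes the median was 0.15 for replication members (14 of 18 positive) and -0.30 for mitotic members (15 of 17 negative), with -0.01 for all tested probe sets. With the mean over all probe sets of a gene the replication median was 0.056 from WT and 0.27 from IkL/L thymocytes. With 1 probe set per gene, the median from IkL/L thymocytes was 0.40 for replication members (15 of 18 positive). For mitotic members it was -0.24 (16 of 17 negative), and for all tested probe sets -0.05. No member was called in either comparison by limma, where 1.88% and 1.42% of tested probe sets were called. At an unadjusted p under 0.05 there were 3 members against WT (Top2a, Kif11 and Plk1, all mitotic) beside 15.8% of tested probe sets, and 3 against IkL/L (Tk1, Ccnb2 and Cdc25c) beside 19.1%.

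The classes were also read array by array. For each array the median over members of the log2 level relative to the mean of the 4 thymocyte arrays was taken, a reference that includes the thymocyte arrays themselves and so holds them near 0. The replication median was -0.06, 0.34, 0.07, 0.79, 0.67 and -0.11 in tumours 1 to 6, 0.16 and 0.10 in WT thymocytes, and 0.03 and -0.25 in IkL/L thymocytes. The mitotic median was -0.49, -0.28, -0.49, 0.20, -0.13 and -0.33 in tumours, 0.04 and 0.01 in WT and 0.00 and -0.15 in IkL/L thymocytes. Each class thus overlapped between tumours and thymocytes, with tumours 4 and 5 high and tumours 1, 3 and 6 low. The mitotic minus the replication median was -0.43, -0.62, -0.55, -0.59, -0.80 and -0.22 in tumours, -0.11 and -0.08 in WT and -0.03 and 0.10 in IkL/L thymocytes. All 6 tumours lay below all 4 thymocyte arrays, with means of -0.53 ± 0.19 (SD, n = 6), -0.10 ± 0.02 (n = 2) and 0.04 ± 0.09 (n = 2). This is a description over chosen members and was not tested.

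**Figure D3:**
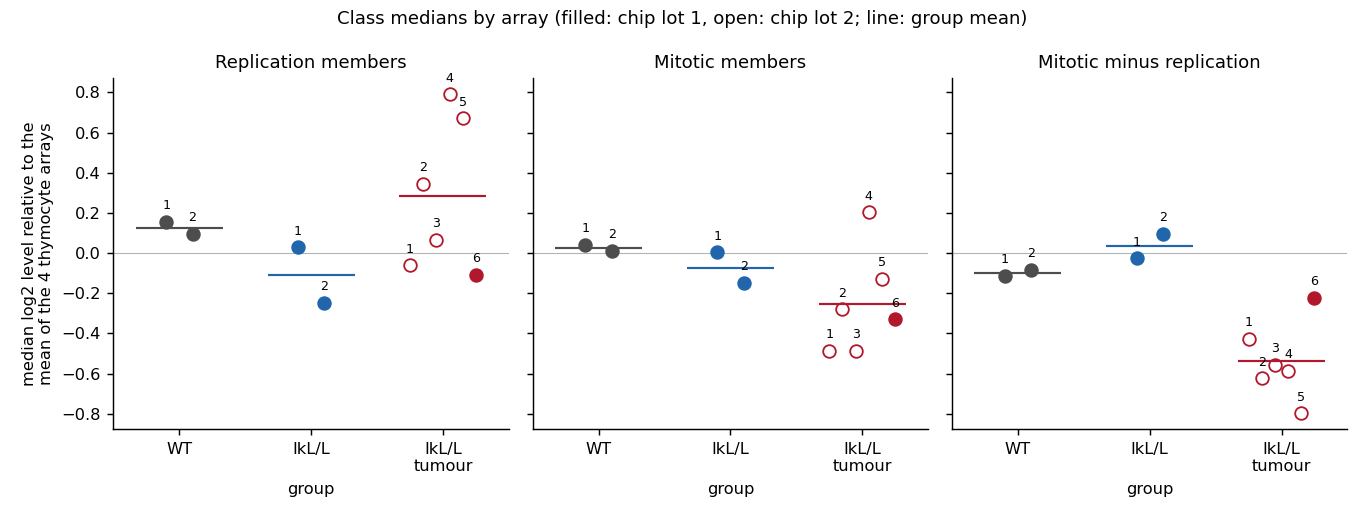
Median log2 level of replication members, of mitotic members, and mitotic minus replication (vertical axis, relative to the mean of the 4 thymocyte arrays) on each array, with group means as lines and chip lots as filled or open points. In the right panel the 6 tumours lie between -0.80 and -0.22, all below the thymocyte arrays, and tumour 6, the tumour of the thymocytes' lot, is the nearest to them.

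Scanner records put tumours 1 to 5 on one chip lot and tumour 6 with all thymocyte arrays on another. Within that shared lot, and equally with lot as a block, the comparison with all thymocytes rests on tumour 6, and the replication median was then -0.11, the mitotic median -0.33 and the distance -0.22 instead of -0.58. The positive replication median was not found in tumour 6, the single tumour of that lot, and the part of the lot in the result was not tested. On the hybridization day that held all groups (tumours 4 and 6 with the thymocytes) the values were 0.32, -0.15 and -0.46. With fluidics run as a block they were 0.25, -0.10 and -0.35. No IkL/L array shared a run with a tumour. These values therefore rest on tumours 4 and 6, and their IkL/L part is reached only through the WT arrays. Of the 20 members with values on every array, 7 had the opposite sign from all thymocytes with lot as a block. They were Mcm7 (0.25 to -0.56), Cdt1 (0.42 to -0.21), Cdc45 (0.32 to -0.22), Rfc4 (0.42 to -0.03), Tk1 (0.47 to -0.06), Ccnb2 (-0.39 to 0.06) and Cenpa (-0.39 to 0.11). From WT alone, Prim1 also turned (0.35 to -0.03). Among the remaining tested members, Mcm2, Mcm4, Mcm5, Pola1, Lig1, Rrm1, Bub1, Birc5 and Nek2 also had the opposite sign from all thymocytes in tumour 6. In that tumour 4 of 18 replication and 4 of 17 mitotic members lay above the thymocyte mean. Over all tumours 15 and 3 had positive differences. Macrophage sums were 19323, 13759, 13107, 9239, 11503 and 12211 in tumours 1 to 6. Tumours 4 and 5, with the highest replication medians, had the lowest sums, but tumour 6, with the lowest median, had the next lowest, and tumour 2 had a high median with the second-highest sum. The part of cell mixture in the members' levels was not tested.

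**Figure D4:**
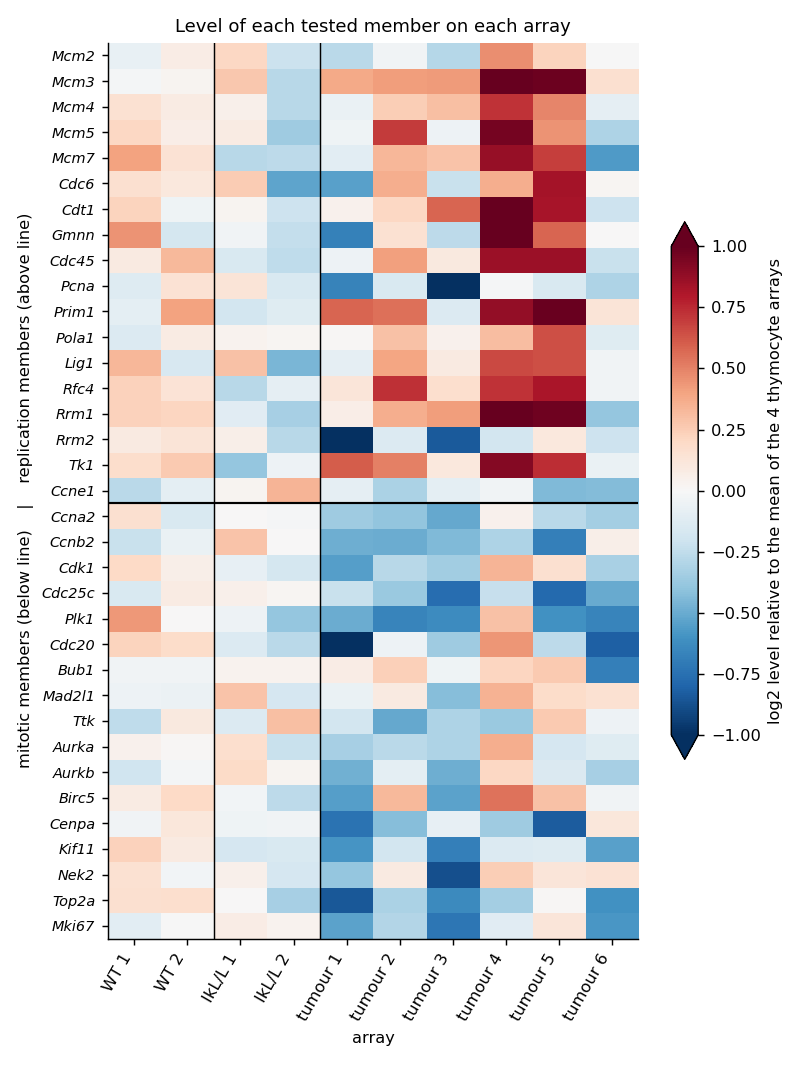
Log2 level of each of the 35 tested members (rows, replication above the line and mitotic below) on each of the 10 arrays (columns), as a colour scale relative to the mean of the 4 thymocyte arrays. Tumours 4 and 5 are mostly the darkest red in the replication rows, but pale or blue for Pcna, Rrm2 and Ccne1. Tumour 4 is the highest tumour for 12 of 18 and tumour 5 for the other 6, and tumours 1 and 3 are mostly blue in the mitotic rows.

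The tested members of the Mcm ring, the replicative helicase, had differences from all thymocytes between 0.01 and 0.58, and none was called. Mcm3 read 1028 and 1058 in WT, 1251 and 860 in IkL/L thymocytes, and 1159, 1396.5 and 2212 as the lowest, median and highest tumour. Tumours 4 and 5 were far above the others, and 5 of 6 tumours exceeded every thymocyte array, tumour 6 being the exception. The log2 difference of Mcm3 from all thymocytes was 0.58 ± 0.23 (SE; 1.49-fold, adjusted p = 0.16), the largest positive one among members, and with chip lot as a block it was 0.16. Mcm7 read 3277 and 2735 in WT, 2047 and 2064 in IkL/L thymocytes, and 1677, 3073 and 4526 as the lowest, median and highest tumour. The 2 IkL/L arrays lay below both WT arrays and above only tumour 6. Its difference between IkL/L and WT thymocytes was -0.54 ± 0.42 (adjusted p = 0.999). Mcm2, Mcm4 and Mcm5, at 0.01, 0.27 and 0.28 from all thymocytes, each overlapped between the groups.

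Cdt1, which loads the Mcm ring, and Cdc45, which joins it at the fork, had a like spread. Cdt1 read 1404 and 1170 in WT, 1225 and 1039 in IkL/L thymocytes, and 1040, 1593 and 2577 as the lowest, median and highest tumour. Tumours 3, 4 and 5 exceeded all thymocyte arrays, and the other 3 overlapped with them. The difference from all thymocytes was 0.42 ± 0.26 (adjusted p = 0.351), and a second probe set gave -0.04. Cdc45 read 600 and 704 in WT, 506 and 472 in IkL/L thymocytes, and 482, 676 and 1022 as the lowest, median and highest tumour. Its IkL/L arrays lay below both WT arrays and near the lowest tumour, and the difference of tumours from IkL/L thymocytes was 0.53 ± 0.31 (adjusted p = 0.375). Cdc6, a loader, and Gmnn, the inhibitor of loading, both had differences of 0.14 from all thymocytes, with spreads of 2.60-fold and 3.32-fold between the lowest and highest tumour.

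Among the proteins that synthesise DNA at the fork, Prim1 encodes the primase subunit that starts each strand. It read 225 and 318 in WT, 212 and 222 in IkL/L thymocytes, and 220, 357 and 478 as the lowest, median and highest tumour. Of the tumours, 4 lay above all thymocyte arrays, and the difference from all thymocytes was 0.50 ± 0.24 (adjusted p = 0.249). Rfc4, a subunit of the loader that places the sliding clamp, read 312 and 293 in WT, 220 and 250 in IkL/L thymocytes, and 260, 369 and 468 as the lowest, median and highest tumour. All tumours lay above both IkL/L arrays while 3 lay within or below the WT range, and the difference from IkL/L thymocytes was 0.60 ± 0.27 (adjusted p = 0.262). Pcna, the clamp itself, had a difference of the opposite sign. It read 3898 and 4709 in WT, 4658 and 3834 in IkL/L thymocytes, and 2054, 3625 and 4213 as the lowest, median and highest tumour. Tumours 3 and 1 were lowest and 4 of 6 lay below every thymocyte array, with a difference of -0.39 ± 0.23 (adjusted p = 0.32). Pola1, a DNA polymerase subunit, and Lig1, the ligase that joins lagging-strand fragments, had differences of 0.20 and 0.28, and a dim second probe set of Lig1 gave -0.92.

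Genes of nucleotide supply lay on both sides of 0. Ribonucleotide reductase makes deoxynucleotides from a large subunit, Rrm1, and a small one, Rrm2. Rrm2 read 2009 and 2058 in WT, 1964 and 1551 in IkL/L thymocytes, and 911, 1644 and 2029 as the lowest, median and highest tumour. Tumours 1 and 3 were the lowest and the only tumours below every thymocyte array. The difference of Rrm2 from all thymocytes was -0.39 ± 0.25 (adjusted p = 0.365), against 0.43 ± 0.29 for Rrm1 (adjusted p = 0.391). In tumour 6, the only tumour of the thymocytes' chip lot, both were negative (-0.21 for Rrm2 and -0.39 for Rrm1). Tk1, thymidine kinase of the salvage pathway, read 1380 and 1459 in WT, 933 and 1178 in IkL/L thymocytes, and 1167, 1794 and 2309 as the lowest, median and highest tumour. Only tumour 6 lay below an IkL/L array, and 4 tumours exceeded all thymocyte arrays. Its difference from IkL/L thymocytes was 0.69 ± 0.28 (1.61-fold, adjusted p = 0.225), the largest for a replication member in that comparison, and 0.15 with chip lot as a block. From WT thymocytes it was 0.25, and -0.28 with lot as a block. A second, dim probe set of Tk1 gave -0.77 from all thymocytes, and the mean of both gave -0.15 from all thymocytes and -0.27 from WT. Ccne1, the cyclin that starts S phase with Cdk2, read 419 and 471 in WT, 514 and 638 in IkL/L thymocytes, and 372, 438 and 493 as the lowest, median and highest tumour. It had the narrowest range between tumours of all members, every tumour lay below both IkL/L arrays, and the difference from IkL/L thymocytes was -0.42 ± 0.20 (adjusted p = 0.298).

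The drivers of entry into mitosis had negative differences, none of them called. Cdc25c, the phosphatase that activates Cdk1, read 396 and 467 in WT, 456 and 446 in IkL/L thymocytes, and 257, 325 and 377 as the lowest, median and highest tumour. It was the member without overlap, each tumour being below each thymocyte array. The difference was -0.48 ± 0.17 (1.39-fold lower, adjusted p = 0.133) and was -0.51 with chip lot as a block and -0.19 with fluidics run as a block. A second, dimmer probe set of Cdc25c gave 0.28 (adjusted p = 0.353), so the 2 probe sets disagreed in sign. Plk1, a kinase that acts from mitotic entry to cell division, read 2270 and 1680 in WT, 1625 and 1283 in IkL/L thymocytes, and 1060, 1097 and 2055 as the lowest, median and highest tumour. Tumour 4 stood apart at the top, and the other 5 tumours lay below every thymocyte array. From WT thymocytes the difference of Plk1 was -0.68 ± 0.29 (1.60-fold lower, adjusted p = 0.284), the largest of any member there, and its 3 probe sets were all negative in that comparison.

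The mitotic cyclins had negative differences without a batch term. Ccnb2, a B-type cyclin partner of Cdk1, read 4810 and 5373 in WT, 6866 and 5624 in IkL/L thymocytes, and 3494, 4080 and 5868 as the lowest, median and highest tumour. Tumour 6 lay among the IkL/L arrays and the other 5 tumours below every thymocyte array. The difference from IkL/L thymocytes was -0.54 ± 0.23 (1.45-fold lower, adjusted p = 0.239) and -0.08 with chip lot as a block. From WT it was -0.25, and turned positive with lot as a block (0.21), on day 1 only (0.02) and with run as a block (0.10). Ccna2, the cyclin of S phase and G2, read 1661 and 1337 in WT, 1491 and 1476 in IkL/L thymocytes, and 1045, 1168.5 and 1533 as the lowest, median and highest tumour. Here too 5 tumours lay below every thymocyte array and tumour 4 did not, with a difference of -0.30 ± 0.16 (adjusted p = 0.282). Cdk1, the kinase of both cyclins, had a difference of -0.17 ± 0.20.

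Cdc20, which activates the anaphase-promoting complex, was the most variable mitotic member. It read 3967 and 3876 in WT, 3098 and 2819 in IkL/L thymocytes, and 1681, 2748 and 4624 as the lowest, median and highest tumour, a 2.75-fold range. Tumour 4 exceeded and tumours 1, 3 and 6 lay below every thymocyte array, and the difference from WT was -0.55 ± 0.34 (adjusted p = 0.492). Bub1, Mad2l1 and Ttk, which hold Cdc20 back at the spindle checkpoint, had differences from all thymocytes of 0.01, 0.05 and -0.19. Each of these checkpoint genes overlapped between tumours and thymocytes.

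Genes for the structure of mitotic chromosomes and the spindle held further negative differences. Top2a, the topoisomerase that untangles chromosomes, read 1894 and 1904 in WT, 1698 and 1348 in IkL/L thymocytes, and 940, 1225 and 1712 as the lowest, median and highest tumour. All tumours lay below both WT arrays, and 4 lay below every thymocyte array. The difference of Top2a from WT was -0.62 ± 0.25 (1.54-fold lower, adjusted p = 0.253) and was -0.77 with chip lot as a block. Kif11, the motor that separates spindle poles, read 1319 and 1194 in WT, 1001 and 1014 in IkL/L thymocytes, and 700, 880 and 1030 as the lowest, median and highest tumour. Again no tumour reached the WT arrays, while 2 exceeded the IkL/L arrays, and the difference from WT was -0.54 ± 0.22 (1.45-fold lower, adjusted p = 0.268). Mki67, whose product coats mitotic chromosomes and marks cycling cells, read 2015 and 2165 in WT, 2278 and 2224 in IkL/L thymocytes, and 1316, 1633 and 2359 as the lowest, median and highest tumour. Tumour 5 was above and the other 5 below every thymocyte array, with a difference of -0.35 ± 0.19 (adjusted p = 0.298).

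Cenpa, the histone that marks centromeres, read 599 and 667 in WT, 597 and 601 in IkL/L thymocytes, and 346, 469 and 664 as the lowest, median and highest tumour. All tumours but tumour 6 lay below every thymocyte array, and the difference was -0.39 ± 0.21 (adjusted p = 0.292), against 0.11 with chip lot as a block. Aurkb, the kinase of the chromosomal passenger complex, read 738 and 835 in WT, 971 and 866 in IkL/L thymocytes, and 605, 721 and 977 as the lowest, median and highest tumour. Its groups overlapped, tumour 4 being the highest array of all, with a difference of -0.33 ± 0.23 from IkL/L thymocytes (adjusted p = 0.425). Birc5 (survivin), another passenger protein, Aurka, a kinase of the spindle poles, and Nek2, a kinase of the centrosome, had differences from all thymocytes of 0.01, -0.14 and -0.11.

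**Figure D5:**
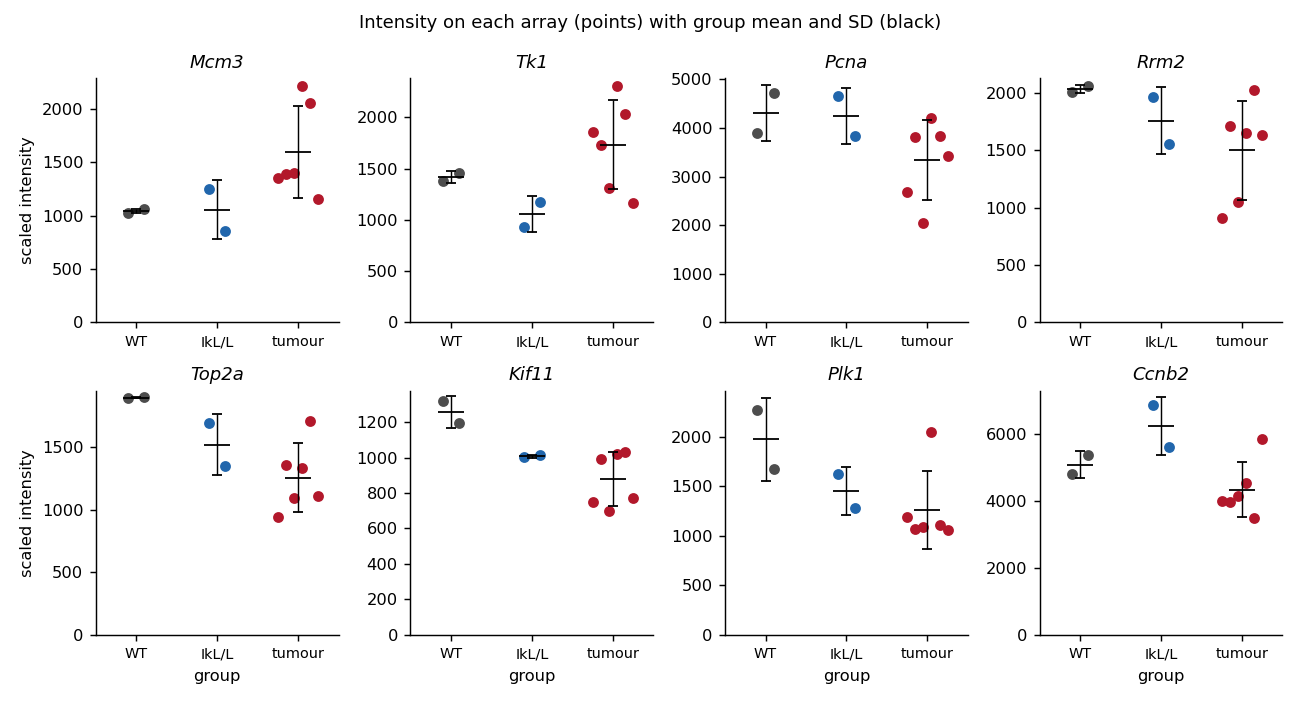
Scaled intensity (vertical axis) of 4 replication members and 4 mitotic members on each array by group (horizontal axis), with the group mean and SD in black. For Top2a and Kif11 every tumour lies below both WT arrays, and for Mcm3 and Tk1 tumours 4 and 5 are the highest points.

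Between the thymocyte genotypes, IkL/L minus WT, no member was called. The median was -0.25 for replication members (16 of 18 negative), -0.05 for mitotic members (10 of 17 negative) and 0.03 for all tested probe sets. No member reached even an unadjusted p under 0.05 in limma, where 3.21% of tested probe sets did and 0.0139% were called. When arrays were scaled to the same median, all tested probe sets moved by -0.15 in this comparison and by 0.14 in tumours minus IkL/L, and the members moved with them. The low replication median was carried by the second IkL/L array at -0.25, with only 2 of 18 replication members above the thymocyte mean there. The first IkL/L array was at 0.03.

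Other genes of these pathways were read from lists that were also chosen with earlier results known. Of 52 further replication genes 45 were measured and 42 tested, with a median of 0.20 from all thymocytes (28 positive). Of 62 further mitotic genes 44 were measured and 41 tested, with a median of -0.13 (28 negative), and of 16 E2F, RB and MuvB regulators 10 were measured and 9 tested, with a median of 0.03 (5 positive). From all thymocytes 1 replication gene and 1 regulator were called, both lower in tumours, and no mitotic gene was, beside the 6.27% of all tested probe sets called in that comparison. From IkL/L thymocytes the medians were 0.32 for replication genes (28 of 42 positive), -0.08 for mitotic genes (56.1% negative, beside 54.3% of all tested probe sets) and -0.13 for regulators (4 of 9 positive). From WT they were 0.12, -0.18 and 0.18.

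Dck, deoxycytidine kinase of the nucleotide salvage pathway, read 4974 and 4764 in WT, 4654 and 4278 in IkL/L thymocytes, and 1057, 1854 and 2507 as the lowest, median and highest tumour. Every tumour was far below every thymocyte array. It fell by 1.48 ± 0.26 on the log2 scale from all thymocytes (2.80-fold lower, adjusted p = 0.0102) while its difference from WT was -1.55 ± 0.33 (adjusted p = 0.0445) and from IkL/L thymocytes -1.42 (adjusted p = 0.0624). With chip lot as a block these differences were -0.89 (adjusted p = 0.378) and -0.96 (adjusted p = 0.394), neither called. On the day that held all groups they were -1.46 (adjusted p = 0.159) and -1.52 (adjusted p = 0.256). With hybridization day as a block the limma adjusted p was 0.106 from all thymocytes and 0.193 from WT. With fluidics run as a block the differences were -1.50 and -1.55, neither called. The call from WT was also lost with no filter (adjusted p = 0.0976) and in the compared groups alone (adjusted p = 0.0789). Leaving out 1 array kept the first call except without the first IkL/L array (adjusted p = 0.0522), and kept the second call only without tumour 6 (adjusted p = 0.0237).

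Rb1, the retinoblastoma protein that restrains E2F, was dimmer. It read 200 and 225 in WT, 258 and 292 in IkL/L thymocytes, and 63.5, 120.7 and 180.5 as the lowest, median and highest tumour, again without overlap. It fell by 1.06 ± 0.27 from all thymocytes (2.09-fold lower, adjusted p = 0.0436). It was not called from either group alone, at -0.88 from WT (adjusted p = 0.237) and -1.25 from IkL/L (adjusted p = 0.0958). The call was lost with chip lot as a block (-0.86) and with fluidics run as a block (-0.88). By limma it was lost with day 1 only (-1.01, adjusted p = 0.155), with day as a block (adjusted p = 0.243) and with no filter (adjusted p = 0.0893). It was also lost with arrays scaled to the same median (-0.99, adjusted p = 0.067) and on leaving out any 1 of the thymocyte arrays or of tumours 2, 3 and 4 (adjusted p from 0.0619 to 0.149).

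The other genes named by rule were not called. From WT thymocytes the differences were -0.60 for Ccnf, a cyclin-like ubiquitin ligase subunit, -0.58 for Cenpc1, a centromere protein, and -0.50 for Prc1, which bundles the midzone spindle. From IkL/L thymocytes they were 1.28 for Hells, a chromatin remodeller, and 1.01 for Orc2, of the origin recognition complex, against -0.67 for Ube2c, an enzyme of the anaphase-promoting complex, -0.51 for Smc4, of condensin, and -0.49 for Ckap2, a microtubule protein. Among regulators Rbl2, a relative of Rb1, was at -0.67 from WT and -0.83 from IkL/L, Lin9, of MuvB, at -0.34 from IkL/L, and E2f5 at 0.57 from WT. Between the thymocyte genotypes the smallest p-values belonged to Chaf1b (-0.53), Hells (-0.92), Orc4 (0.37), Cenpc1 (-0.66), Cdca8 (-0.48), Ube2c (0.46), E2f5 (0.42), Rb1 (0.38) and Foxm1 (0.31), each with an adjusted p of 0.999.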

How the data were processed

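Per the labels, RNA of 6 thymic tumours and 4 thymocyte preparations was hybridized to MG_U74Av2 arrays. The values are intensity per probe set, deposited by the authors; the summarizing software is not given in the sources used here. After removal of 2% of values at each end every array had a mean of 300.2, so the table was taken as already scaled and not scaled again. Of 12488 probe sets, 66 controls were left out; 10855 had 1 symbol, 396 several and 1237 none. A lower limit of 16, which is the 20th percentile of the table, replaced smaller intensities before log2 was taken. The 7172 probe sets above the array median on at least 2 arrays were tested with limma 3.58.1 in R 4.3.3 (1 mean per group over 10 arrays, eBayes, 7 residual and 3.17 prior degrees of freedom, two-sided) and adjusted by the Benjamini-Hochberg method over all of them. Group means are ± SD, differences ± SE. The number of arrays limits the precision, and no array is identical to another.

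Members, lists, tests and alternatives were chosen with earlier results of these data known, so no list was tested. Values on every array are given for members that passed the test and, per class, for the 5 with the smallest unadjusted p in tumours minus WT, tumours minus IkL/L and IkL/L minus WT (20 members). Further genes were named if they passed, or otherwise as the up to 3 per list and comparison with the smallest unadjusted p. Chip lot, hybridization day and fluidics run (hybridizations within 10 minutes of each other) came from the scanner records. Alternatives were 2 scalings, 2 filters, 2 lower limits, another variance model, subsets of arrays, 3 batch blocks, probe set means and leaving out each array. The procedure was tested on simulated data with independent noise and no effect of lot, day or run. That test therefore says nothing about batches.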

Additional observations from a re-analysis of the deposited data

Results flagged for a closer look

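In 3 of 38 sets of values examined, 1 tumour stood away from the other 5 by more than Dixon's 95% critical value, which chance exceeds in about 1 of 20 sets. Plk1 was highest in tumour 4, at 2055, with the next tumour at 1190. Aurka was highest in the same tumour, at 735.2, with the next at 524.1. Bub1 was lowest in tumour 6, at 147.1, with the next tumour at 229.8. Without tumour 4 the log2 difference of Plk1 from WT thymocytes was -0.83 (limma, adjusted p = 0.085), against -0.68 with all tumours (adjusted p = 0.284), and neither was called.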

How the results depend on the processing

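No member was called in any comparison under any alternative run. The median of replication members, that of mitotic members and the distance between them kept their direction in all tumour comparisons, except the replication median with chip lot as a block, which rests on tumour 6: -0.23 from WT, -0.011 from IkL/L and -0.11 from all thymocytes. With this block the mitotic minus replication median was -0.11 from WT, -0.32 from IkL/L and -0.22 from all thymocytes. With fluidics run as a block the mitotic median from IkL/L was -0.01595, and the distance was -0.32 from IkL/L and -0.35 from all thymocytes. No IkL/L array shared a run with a tumour, so the values from IkL/L rest on tumours 4 and 6 and are reached only through the WT arrays. Leaving out 1 array gave replication medians of 0.04 to 0.24 from WT, 0.21 to 0.53 from IkL/L, 0.17 to 0.37 from all thymocytes and -0.34 to -0.06 for IkL/L minus WT. The mitotic medians were -0.35 to -0.23, -0.31 to -0.13, -0.37 to -0.21 and -0.12 to -0.01 in the same order, and the distances -0.51 to -0.36, -0.70 to -0.52, -0.65 to -0.50 and 0.05 to 0.23.

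Counts over all tested probe sets moved more. Between tumours and WT 135 probe sets were called, against 33 with lot, 52 with day and 9 with run as a block, 26 on day 1 only, 77 with no filter, and 14 to 221 when 1 array was left out. Between tumours and IkL/L there were 102, against 17 with lot, 42 with day and 0 with run as a block, 20 on day 1 only, 163 after quantile normalization, 207 with a variance trend, and 7 to 332 when 1 array was left out. Between tumours and all thymocytes there were 450, against 53, 130 and 1 with lot, day and run as blocks, 45 on day 1 only, 294 with no filter, and 145 to 764 when 1 array was left out. Between IkL/L and WT thymocytes there was 1, against 2 with lot as a block or the limit at the 30th percentile, 15 with no filter, 0 on day 1 only, with run as a block, in the compared groups alone, with the stricter filter or with a variance trend, and 1 to 2 when 1 array was left out. The blocks and subsets leave fewer arrays for each difference; beyond this the cause was not tested. Of 2002 values of single named genes, 1908 kept direction and side of the threshold, 59 changed sign without passing, 33 lost a call (Dck or Rb1) and 2 gained one (Dck from IkL/L). Many of these values could not change direction, so the count does not measure robustness. Leaving out an array of a group outside a comparison does not alter its differences, and neither do the filters or the variance model. The lot and day settings do not alter IkL/L minus WT. No paired analysis was possible because the labels carry no shared numbers that pair arrays of different groups. For tumours minus all thymocytes the fit on the compared groups alone is the fit on all arrays.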
